A study of Mus musculus with 6 samples.

Results

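The 39 genes described here encode the machinery that carries RNA polymerase II (Pol II) from the promoter-proximal pause through the body of a gene. They were taken from a list of names, with no measured value in the rule, although earlier results of these data were known when it was chosen. The list holds 5 core subunits of Pol II, 4 subunits of NELF, 5 genes of the kinase P-TEFb and its 7SK inhibitor, 8 of the super elongation complex, 6 of the PAF1 complex, 6 encoding Spt proteins, Iws1 and the FACT chaperone, 2 TFIIS genes and 3 of the later kinases of the Pol II tail. All 39 matched an identifier in GENCODE M21, among 55450 genes in the tables, and all 39 passed the filter on low counts that left 27939 genes for testing. Polyadenylated RNA was sequenced from the cerebral cortex of adult mice in 6 libraries, of which 3 carried the label heterozygous for Setd5 and the other 3 the label wild type. The labels name no allele, strain or exact age and do not say whether a library came from a single animal, so p-values measure the spread between libraries, which may be technical in part. In whole tissue, fewer cells of a type and less RNA per cell cannot be told apart.

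Soon after initiation Pol II is held near the promoter by DSIF (Spt4 with Spt5) and NELF. P-TEFb, a pair of Cdk9 and cyclin T, phosphorylates these factors and the C-terminal domain of the largest Pol II subunit, NELF leaves, and Pol II moves on with the PAF1 complex, Spt6, FACT and TFIIS, while most P-TEFb in a cell is kept inactive in a particle built on 7SK RNA. In neurons the release of paused Pol II is known as a step in the rapid induction of activity-regulated genes. Setd5 is a SET-domain protein of chromatin that has been reported to associate with the PAF1 complex and with the NCoR-HDAC3 co-repressor, and the comparison asks whether transcripts of the elongation machinery differ when a single copy of Setd5 is mutated.

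Library totals lay between 82850628 and 92860628 counts, and a member gathered between 162 counts (Supt4a) and 20407 counts (Aff4) in a library. Setd5 itself stood at 69.5, 68.7 and 75.3 CPM (read counts normalised to the effective library size) in heterozygous libraries, against 111, 97.0 and 108 CPM in wild type libraries, so the groups did not overlap, and the libraries labelled heterozygous were the lower ones. Neuronal markers summed to between 5666 and 6613 CPM in heterozygous libraries, against 5793 to 6066 CPM in wild type libraries, and all 5 of these markers were detected in this cortex. Xist counts were high in heterozygous replicate 3 (78747) and wild type replicate 3 (69096) and between 38 and 78 in the other 4 libraries, so each genotype held a single library with high Xist. Wild type replicate 2 stood apart from the rest for the elongation genes. It held the lowest of the 6 values for 19 of the 39 members, and 32 members lay below their wild type mean in it. The median deviation of the members from the wild type mean was -0.06 in log2 CPM in that library and between -0.0041 and 0.05 in the other 5, while the median over all genes tested lay between -0.0015 and 0.0090 in every library. The count and the median of each role are given with and without it, as are the differences of several members. Because it was singled out for its low member levels, leaving it out lowers the differences of most members by construction.

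**Figure D1:**
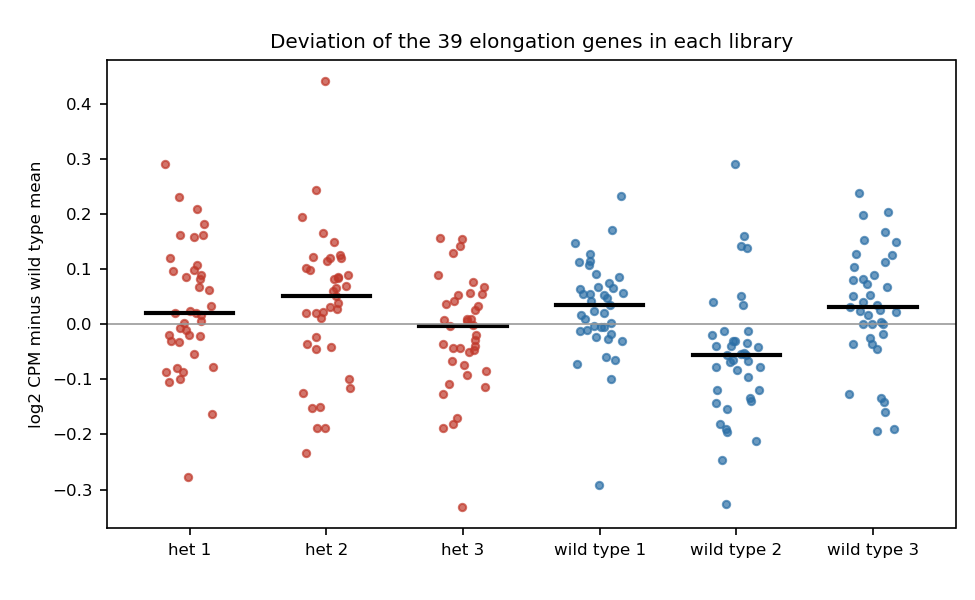
Each point is a member, plotted as its log2 CPM in a library minus its mean over the 3 wild type libraries, with heterozygous libraries in red, wild type libraries in blue and a black bar at the median of the 39. The medians of the heterozygous libraries lie between -0.0041 and 0.05, and wild type replicate 2 is the library with the lowest median, at -0.06.

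No member passed the test for a genotype difference over all genes. In edgeR's quasi-likelihood test 0 of the 39 were higher and 0 lower in heterozygous cortex at a Benjamini-Hochberg adjusted p under 0.05, where the same was true of 0% of the 27939 genes tested. Setd5 was not called in this test either, at an adjusted p of 0.258, although its p ranked 2 among all genes tested. A member that changed could therefore go uncalled here. Across 19 fits, this one and its alternatives, Setd5 had an unadjusted p under 0.05 in all 19. Its adjusted p was under 0.05 in an alternative fit, though not in every one. At an unadjusted p under 0.05 there were 0 higher and 2 lower, Mllt3 and Ell3, or 5.13% of the members, beside 5.83% of all genes tested, 2.44% higher and 3.38% lower. The 3 heterozygous libraries lay wholly above or below the 3 wild type libraries for 4 members, 1 higher and 3 lower, or 10.3%, beside 11.7% of all genes tested, 5.88% higher and 5.85% lower. Both shares are near those of the whole table. DESeq2, plain limma-voom, limma-voom weighted by library quality and edgeR's likelihood ratio test called 0 members as well. Of all genes they called 0.222% (DESeq2), 0% (plain limma-voom), 0.00716% (weighted limma-voom) and 0.104% (likelihood ratio test). Members at an unadjusted p under 0.05 numbered 1 in DESeq2, beside 5.55% of all genes, 2 in each limma-voom fit, beside 5.8% (plain) and 7.91% (weighted), and 0 in the likelihood ratio test, beside 5.01%. Under the other scalings there were 2 with DESeq2 size factors (5.82% of all genes), 2 with library totals (5.79%) and 3 with upper quartile factors (5.86%), and with other filters 1 with at least 1 count (5.1%) and 2 with at least 1 CPM in 3 libraries (6.31%). A robust fit gave 1 (5.71%) and a covariate for high Xist counts 2 (7.27%). Without the libraries with high Xist counts there were 2 others, Leo1 and Hexim1, both higher (7.89%). Leaving out heterozygous replicates 1, 2 and 3 in turn gave 1, 0 and 0 members (3.91%, 3.07% and 5.5% of all genes), and leaving out wild type replicates 1, 2 and 3 gave 2 each time (6.63%, 8.89% and 6.69%). The adjusted test called 0 members in these fits too, also where it called a few of all genes, 0.0142% with at least 1 count and 0.00697% without wild type replicate 2.

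The fitted differences were small in size. Fitted levels were above wild type for 23 members and below it for 16, where 49.9% of all genes tested were above, with a median log2 difference of 0.02 over the members and of -0.00053 over all genes tested. Without wild type replicate 2 they were above for 19 and below for 20, with a median of -0.0016. Without wild type replicate 1 they were above for 24 and below for 15, and without replicate 3 for 26 and 13, with medians of 0.04 and 0.03. Leaving out heterozygous replicates 1, 2 and 3 in turn gave 22, 20 and 25 above, with medians of 0.02, 0.01 and 0.04. In the fit of all 6 libraries single members ran from -0.27 for Ell3 to 0.19 for Larp7. The 95% intervals of the log2 difference, taken gene by gene, reached 0.18 to each side in the median member, and 37 of the 39 lay wholly between -0.5 and 0.5, against 51% of all genes tested. The shares are not matched for level. Interval width depends on counts, and the median gene tested had 4.54 CPM, less than every member except Ell3 and Supt4a. The intervals of these members reached beyond the bounds, with the lower end of Ell3 at -0.53 and the upper end of Supt4a, the member with the fewest counts, at 0.62. The Setd5 difference of -0.56 lay outside the bounds, but its interval, from -0.72 to -0.40, crossed -0.5. Within genotypes the members varied by a median of 7.01% (coefficient of variation of CPM), against 8.61% for the 18985 genes tested with a mean of at least 1 CPM. Supt16 varied least, by 2.19%, and Supt4a most, by 18.4%.

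**Figure D2:**
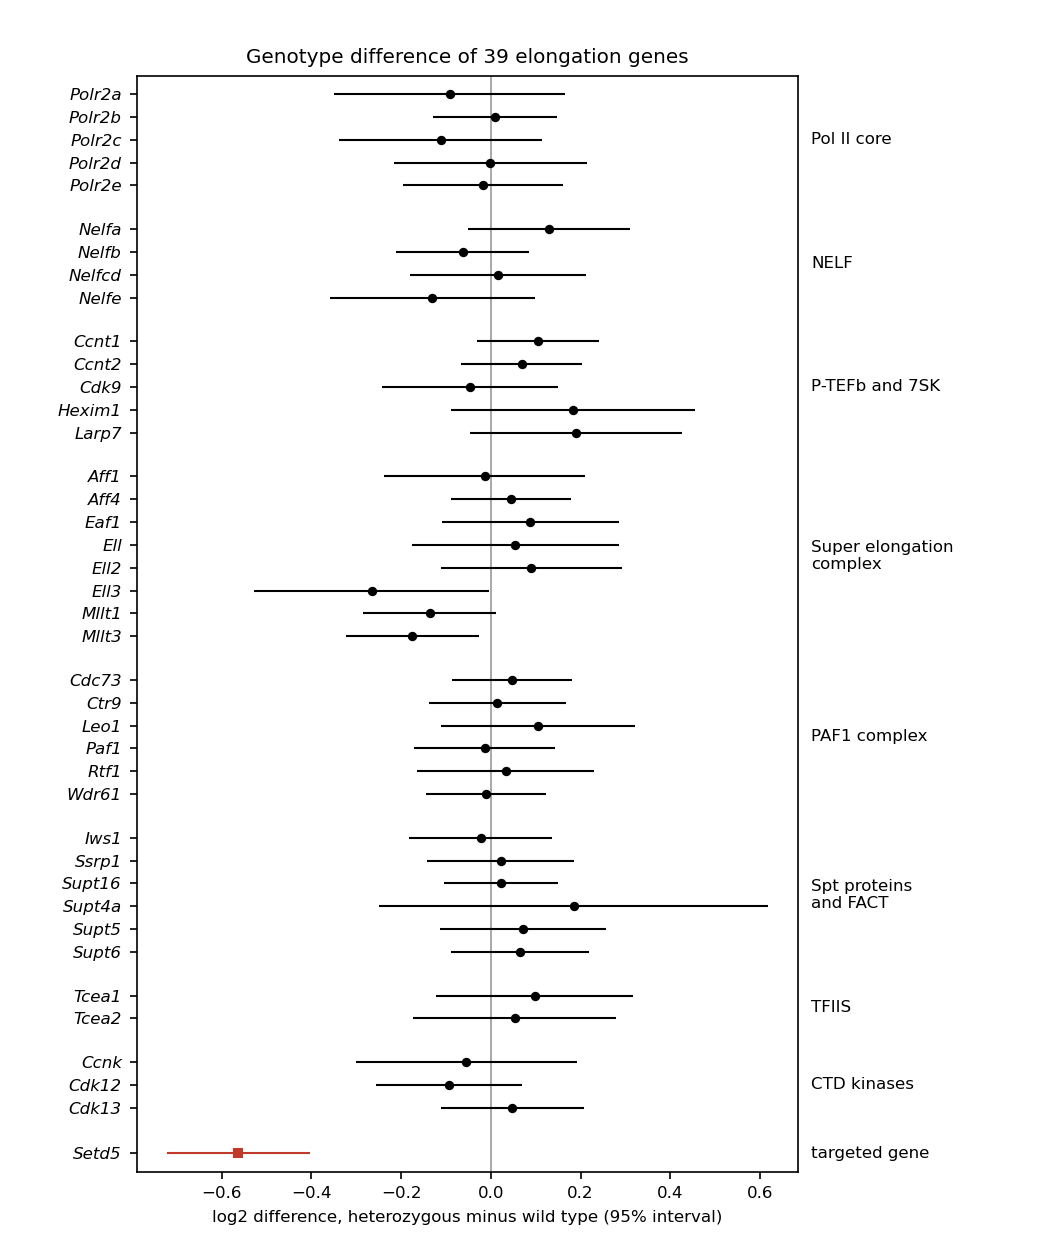
Points are log2 differences of heterozygous minus wild type cortex for the 39 members, grouped by role, and bars are 95% intervals from edgeR's quasi-likelihood fit, with Setd5 in red at the bottom. Intervals of all members except Mllt3 and Ell3 include 0, and all members lie nearer to 0 than Setd5 at -0.56.

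The members lie on 16 chromosomes, 7 of them on chromosome 2 and 6 on chromosome 11, with none on chromosome 6, where Setd5 lies. Exons of 16 members overlap another annotated gene, and for 4 of them the overlap exceeds 10% of the exon length. These were Ell3, which shares 65.6% of its exon length with Serinc4 on the same strand, and Wdr61, Supt16 and Polr2c, which share 33.9%, 21.0% and 18.1% with Dnaja4, Rpgrip1 and Dok4 on the opposite strand. Without strand marks in the libraries, reads from the stretches on opposite strands cannot be assigned to either gene. For Ell3 and Serinc4, on the same strand, strand marks would not separate them either. Stretches shared with genes elsewhere concern 3 more members. Of the distinct 50-base stretches in Tcea1 transcripts, 21.1% also occur in its pseudogene Tcea1-ps1, 18.3% of those of Supt4a occur in Supt4b, annotated as a processed pseudogene, and 15% of those of Larp7 occur in Gm12666. How reads that match several places were counted is not stated, so the levels of these 7 genes carry that uncertainty.

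Levels of different members are compared per kilobase of exon. The length is that of all annotated exons merged, not of the transcripts present in this cortex, so ratios between genes depend on the annotation. It is 17613 bases for Cdc73 and 5731 for Rtf1, which averaged 78.5 and 125 CPM in heterozygous libraries before division by length. Levels per kilobase spanned a wide range, from 1.28 CPM per kilobase for Aff1 to 21.6 CPM per kilobase for Rtf1 as means over the 6 libraries, with a median of 6.74. Across the 39 members the Spearman rho between this level and the mean length of an exon block was -0.093, a description over genes that share the same libraries.

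**Figure D3:**
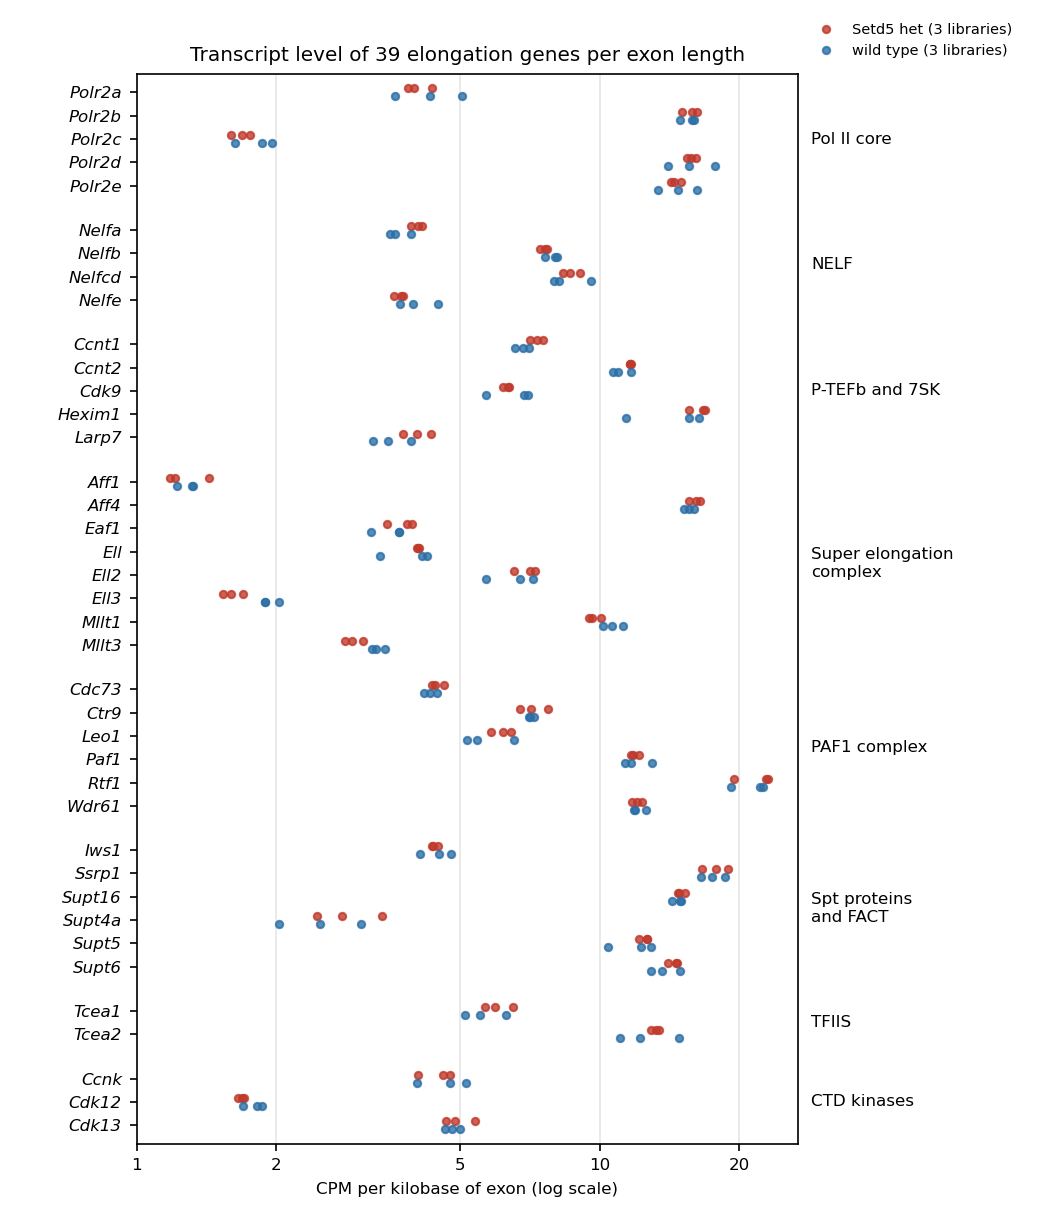
Each point is a library, plotted as CPM per kilobase of exon on a log axis, with the 3 heterozygous libraries in red above the 3 wild type libraries in blue for each member. The spread between members, from 1.28 for Aff1 to 21.6 for Rtf1 as 6-library means, is far wider than the spread between libraries of a member.

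Among the core subunits of Pol II, Polr2a encodes the largest subunit, which carries the C-terminal domain that the elongation kinases phosphorylate. Its level was 30.7, 27.2 and 28.1 CPM in heterozygous libraries, against 30.4, 25.5 and 35.7 CPM in wild type libraries. The heterozygous values lay inside the wild type range, which was wide. The log2 difference was -0.09 (SE 0.11), with a 95% interval from -0.35 to 0.17, and it was -0.21 when wild type replicate 2 was left out and 0.04 when replicate 3 was, so its sign rests on single libraries. Polr2b, which forms the catalytic centre together with Polr2a, had a log2 difference of 0.01 (SE 0.06), with an interval from -0.13 to 0.15. Polr2c, an assembly subunit, had one of -0.11 (SE 0.10), which was -0.19 when wild type replicate 2 was left out, Polr2d, part of the stalk, one of -0.0009 (SE 0.10), and Polr2e, a subunit shared by all nuclear RNA polymerases, one of -0.02 (SE 0.08). Of the 5 subunits 1 was above wild type and 4 below, with a median of -0.02, and leaving out that library gave 2 above and 3 below with a median of -0.01. Their transcripts were far from equal per length. Polr2b stood at 15.7 ± 0.611 CPM per kilobase in heterozygous and 15.6 ± 0.562 in wild type cortex, and Polr2a at 4.05 ± 0.255 in heterozygous and 4.32 ± 0.718 in wild type cortex (SD, n = 3 each). The Polr2b level per kilobase exceeded that of Polr2a by 3.64 to 4.22 times in heterozygous and 3.15 to 4.43 times in wild type libraries. Polr2d and Polr2e averaged 15.8 ± 1.18 and 14.7 ± 0.939 CPM per kilobase over all libraries and Polr2c 1.75 ± 0.141 (SD, n = 6), the last with the exon overlap given above.

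NELF, the negative elongation factor, holds Pol II at the pause. Nelfa stood at 15.42, 16.30 and 16.04 CPM in heterozygous libraries, against 15.49, 13.89 and 14.28 CPM in wild type libraries. The groups overlapped at a single pair, with heterozygous replicate 1 just under wild type replicate 1. The log2 difference was 0.13 (SE 0.08), with an interval from -0.05 to 0.31 and an adjusted p of 0.873 by edgeR. Nelfe, the subunit that binds RNA, had a log2 difference of -0.13 (SE 0.10), Nelfb one of -0.06 (SE 0.07) and Nelfcd one of 0.02 (SE 0.09). The 4 subunits thus lay on both sides of 0, 2 above and 2 below, with a median of -0.02. When wild type replicate 2 was left out, 1 was above and 3 below with a median of -0.06, and Nelfe stood at -0.19. Per kilobase, Nelfcd and Nelfb averaged 8.63 ± 0.611 and 7.74 ± 0.262 CPM and Nelfe and Nelfa 3.87 ± 0.317 and 3.86 ± 0.243 CPM (SD, n = 6 each).

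P-TEFb is the kinase that ends the pause, and the 5 genes of the kinase and its inhibitor had a median log2 difference of 0.10, with 4 above 0 and Cdk9, the kinase itself, below at -0.05 (SE 0.09). The median was 0.04 when wild type replicate 2 was left out, with 4 above and 1 below, and Cdk9 was then at -0.14. Ccnt1 encodes its main cyclin and was the only member with every heterozygous library above every wild type library. It stood at 67.2, 69.2 and 64.9 CPM in heterozygous libraries, against 64.5, 60.2 and 62.6 CPM in wild type libraries. The gap between the groups was under 1 CPM, and the log2 difference of 0.10 (SE 0.06) had an interval from -0.03 to 0.24 and an adjusted p of 0.866 by edgeR. Ccnt2, the alternative cyclin, stood at 144, 143 and 144 CPM in heterozygous libraries, against 144, 132 and 135 CPM in wild type libraries. The heterozygous values were close together, around the highest wild type value, and the log2 difference was 0.07 (SE 0.06). Ccnt2 exceeded Ccnt1 per kilobase in every library, by 1.54 to 1.65 times in heterozygous and 1.60 to 1.66 times in wild type cortex.

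The inhibitory side consists of Hexim1, which blocks Cdk9 when bound to 7SK RNA, and Larp7, which binds and stabilises that RNA. Larp7 stood at 10.2, 9.57 and 8.89 CPM in heterozygous libraries, against 9.25, 8.24 and 7.66 CPM in wild type libraries. The groups overlapped, and the log2 difference of 0.19 (SE 0.11) was the highest of all members, with an interval from -0.05 to 0.43 and an adjusted p of 0.864 by edgeR. Hexim1 stood at 58.5, 59.0 and 54.5 CPM in heterozygous libraries, against 54.4, 39.8 and 57.2 CPM in wild type libraries. Heterozygous replicate 3 lay between the 2 higher wild type libraries, and wild type replicate 2 lay far below all others. The log2 difference was 0.18 (SE 0.12) with an adjusted p of 0.874 by edgeR, and without wild type replicate 2 it was 0.03, so its size rests on that library. Without wild type replicate 3, on the other hand, it was 0.28 (adjusted p = 0.701, edgeR).

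**Figure D4:**
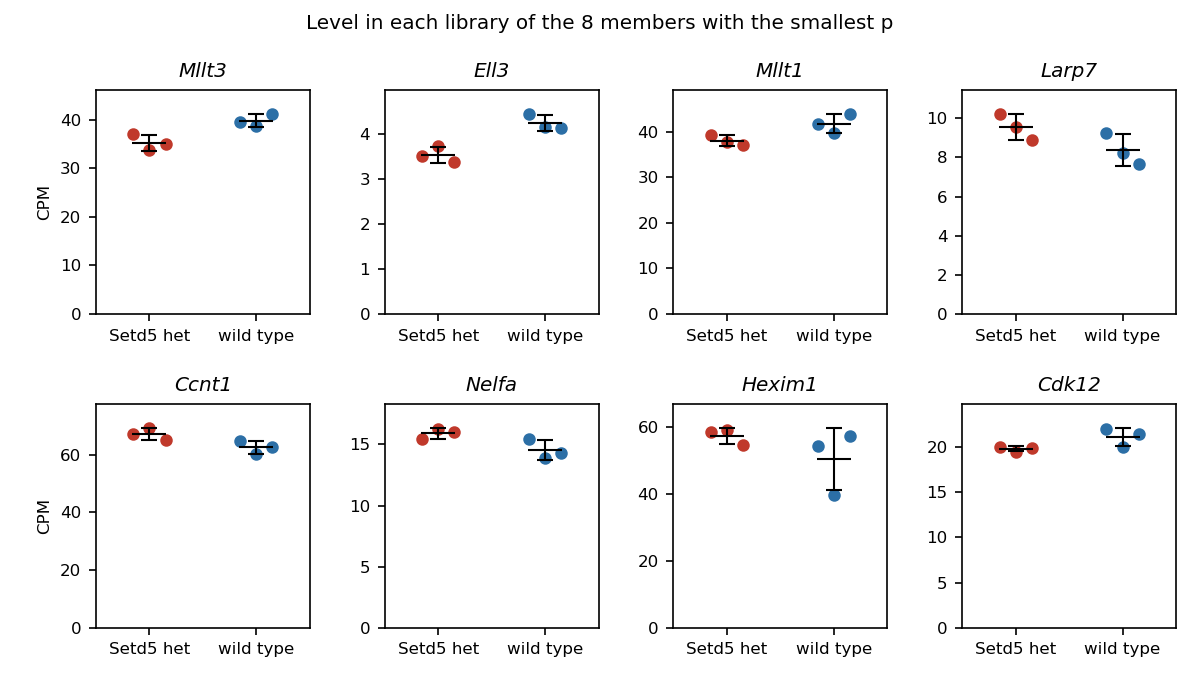
CPM of the 8 members with the smallest p, in the 3 Setd5 heterozygous libraries in red and the 3 wild type libraries in blue, with the group mean and SD in black and each axis starting at 0. The groups do not overlap for Mllt3, Ell3, Mllt1 and Ccnt1, and the low wild type value of Hexim1, 39.8 CPM, is replicate 2.

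The super elongation complex joins P-TEFb to factors that keep Pol II moving, and 3 of its 8 genes were lower with groups that did not overlap, as were 5.85% of all genes tested. No other role among the members held such a gene, and over all 39 members the share in either direction was 10.3%, beside 11.7% of all genes tested. Of 80 further genes of the pathway, read below, 2 were lower without overlap, Aff3 and Ctdsp1, and 0 higher, or 2.5%. The 3 of the super elongation complex include Ell3, which shares 65.6% of its exon length with Serinc4. Of the 8, 4 were above wild type and 4 below with or without wild type replicate 2, with a median log2 difference of 0.02 with it and of -0.02 when it was left out. Mllt3 and Mllt1 encode AF9 and ENL, closely related proteins whose YEATS domain reads acylated histones. Mllt3 stood at 37.1, 33.9 and 35.0 CPM in heterozygous libraries, against 39.5, 38.8 and 41.3 CPM in wild type libraries. Every heterozygous library was below every wild type library, with a mean of 35.3 ± 1.62 CPM in heterozygous libraries and of 39.9 ± 1.28 CPM in wild type libraries (SD, n = 3 each). The log2 difference was -0.18 (SE 0.07), with an interval from -0.32 to -0.03, which puts the heterozygous level between 80.0% and 98.1% of wild type. Its p ranked 834 among 27939 genes, and the adjusted p by edgeR was 0.838. Mllt1 stood at 39.4, 37.7 and 37.1 CPM in heterozygous libraries, against 41.7, 39.8 and 44.0 CPM in wild type libraries. The groups again did not overlap, with heterozygous replicate 1 just below wild type replicate 2. The log2 difference was -0.14 (SE 0.07), with an interval from -0.28 to 0.01 and an adjusted p of 0.864 by edgeR. Without wild type replicate 2 the differences were -0.20 for Mllt3 and -0.17 for Mllt1, with adjusted p of 0.526 and 0.535 by edgeR. Without both libraries with high Xist counts they were -0.14 and -0.08, and Mllt3 then no longer had an unadjusted p under 0.05, nor did it without heterozygous replicate 2, heterozygous replicate 3 or wild type replicate 3, with log2 differences of -0.15, -0.17 and -0.15. The pair kept its proportion, since the Mllt1 level per kilobase exceeded that of Mllt3 by 3.25 to 3.41 times in heterozygous and 3.15 to 3.27 times in wild type libraries.

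Ell3 and its relatives Ell and Ell2 encode elongation factors that suppress transient pausing of Pol II. Ell3 stood at 3.503, 3.724 and 3.373 CPM in heterozygous libraries, against 4.448, 4.156 and 4.140 CPM in wild type libraries. Every heterozygous library was below every wild type library, and the log2 difference of -0.27 (SE 0.12) was the lowest of all members. The interval ran from -0.53 to -0.0032, and the adjusted p by edgeR was 0.855. With any single library left out the difference lay between -0.30 and -0.23, and its unadjusted p was above 0.05. Serinc4, which covers 65.6% of its exon length, averaged 47.0 ± 0.905 CPM in heterozygous libraries and 45.5 ± 4.01 CPM in those of wild type (SD, n = 3 each). For Serinc4 the log2 difference was 0.05 (SE 0.08), and the part of its reads in the Ell3 count was not tested. Ell stood at 12.6, 12.7 and 12.6 CPM in heterozygous libraries, against 12.8, 10.4 and 13.2 CPM in wild type libraries. Ell2 stood at 71.3, 69.5 and 64.2 CPM in heterozygous libraries, against 66.3, 70.5 and 55.9 CPM in wild type libraries. For both the groups overlapped, with log2 differences of 0.05 (SE 0.10) for Ell and 0.09 (SE 0.09) for Ell2. Per kilobase Ell2 was the most abundant of the 3, at 6.74 ± 0.586 CPM, against 3.99 ± 0.315 for Ell and 1.78 ± 0.193 for Ell3 (SD, n = 6 each).

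The scaffolds of the complex, Aff1 and Aff4, differed far more from each other than between genotypes. Aff4 stood at 222, 217 and 209.7 CPM in heterozygous libraries, against 215, 205 and 209.8 CPM in wild type libraries. Aff1 stood at 11.5, 11.2 and 13.6 CPM in heterozygous libraries, against 11.6, 12.5 and 12.5 CPM in wild type libraries. The groups overlapped for both, with log2 differences of 0.04 (SE 0.06) for Aff4 and -0.01 (SE 0.10) for Aff1. Per kilobase Aff4 exceeded Aff1 by 10.9 to 13.7 times in heterozygous and 11.5 to 13.0 times in wild type libraries. Eaf1, which binds the ELL proteins, had a log2 difference of 0.09 (SE 0.09), which was 0.02 when wild type replicate 2 was left out.

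Promoters of Mllt3 and Mllt1 are shown because these related genes are both among the 3 members with the smallest p and were both lower without overlap. The stretches are the RefSeq windows of up to 250 bases before the gene start in GRCm38.p6, kept only where they lie outside the GENCODE gene, and both are on the minus strand, at chr4:88033408-88033657 for Mllt3 and chr17:56935416-56935638 for Mllt1. Capitals mark matches, on either strand, to the GC box GGGCGG, the CCAAT box CCAAT, the ETS site CCGGAAG and the core TGACG of the cyclic AMP response element. Matches that overlap run together.
Mllt3: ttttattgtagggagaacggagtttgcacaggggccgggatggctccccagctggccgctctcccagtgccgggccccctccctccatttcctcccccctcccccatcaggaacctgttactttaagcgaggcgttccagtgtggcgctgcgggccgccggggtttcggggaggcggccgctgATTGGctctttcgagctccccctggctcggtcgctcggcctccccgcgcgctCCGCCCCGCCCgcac
Mllt1: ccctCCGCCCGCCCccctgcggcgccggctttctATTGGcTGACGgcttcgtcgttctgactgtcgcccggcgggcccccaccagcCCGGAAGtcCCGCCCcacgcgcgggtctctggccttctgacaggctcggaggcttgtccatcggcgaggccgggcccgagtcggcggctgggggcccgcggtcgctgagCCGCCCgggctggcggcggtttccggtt
Both are rich in CpG, with 23 CpG in the 250 bases of Mllt3 and 31 in the 223 bases of Mllt1, and both hold GC boxes and a single CCAAT box, while the printed ETS and TGACG matches are in Mllt1. A RefSeq promoter was found for 31 of the 39 members. In the 250 bases before the start they held a median of 24 CpG, against 10 over the 16521 protein-coding genes with such a promoter, and the lowest count, 8, was that of Ell3. The GC box was present in 25 of the 31, or 80.6%, against 44.5% of protein-coding genes, the ETS site in 25.8% against 9.53%, the TGACG core in 38.7% against 20.8%, and the CCAAT box in 38.7% against 36.1%. TATAAA was present in 9.68% against 11.9%. The E-box motif and the motif of the factor NRF1, also searched, were present in 6.45% against 6.79% and in 0% against 1.11%. These are matches of letters and were set beside no measure of binding. The protein-coding genes were not matched to the members for CpG content or for level. The part of either in the differences between these shares was not tested.

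The PAF1 complex travels with elongating Pol II and is needed for the ubiquitin mark on histone H2B in transcribed genes. None of its 6 members had groups that did not overlap or an unadjusted p under 0.05, with 4 fitted levels above wild type, 2 below and a median log2 difference of 0.02. When wild type replicate 2 was left out, 3 were above and 3 below, with a median of -0.01. The intervals of all 6 lay between -0.17 and 0.32. Paf1, which gives the complex its name, stood at 40.7, 41.9 and 40.2 CPM in heterozygous libraries, against 44.6, 39.1 and 40.2 CPM in wild type libraries. The groups overlapped, and the log2 difference was -0.01 (SE 0.07), with an interval from -0.17 to 0.14. Ctr9, the scaffold, had a log2 difference of 0.01 (SE 0.07), Cdc73, the tumour suppressor parafibromin, one of 0.05 (SE 0.06), Wdr61, a protein of WD repeats that also serves the Ski complex of RNA decay, one of -0.01 (SE 0.06), and Rtf1, which promotes H2B ubiquitination, one of 0.03 (SE 0.09). Leo1, which pairs with Paf1, stood at 31.22, 29.95 and 28.18 CPM in heterozygous libraries, against 26.33, 25.01 and 31.71 CPM in wild type libraries. Wild type replicate 3, a library with high Xist counts, was the highest of all 6 and the other 2 wild type libraries the lowest. The log2 difference was 0.11 (SE 0.10, adjusted p = 0.902 by edgeR), and it was 0.21 without wild type replicate 3 (adjusted p = 0.596 by edgeR), 0.25 without both libraries with high Xist counts (adjusted p = 0.443) and 0.03 without wild type replicate 2. Per kilobase the transcripts of the complex spread from 4.39 ± 0.150 CPM for Cdc73 to 21.6 ± 1.73 CPM for Rtf1 (SD, n = 6 each). Rtf1 exceeded Cdc73 by 4.49 to 5.18 times in heterozygous and 4.31 to 5.38 times in wild type libraries, and Paf1 (11.96), Wdr61 (12.09), Ctr9 (7.16) and Leo1 (5.93 CPM per kilobase) lay between them.

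The Spt proteins and FACT handle nucleosomes and the clamp around Pol II. For the 6 genes 5 fitted levels were above wild type and 1 below, with a median log2 difference of 0.04 and no member at an unadjusted p under 0.05. The count turned over when wild type replicate 2 was left out, to 2 above and 4 below with a median of -0.0097. Supt5, the large DSIF subunit, had a log2 difference of 0.07 (SE 0.08), which was -0.02 without wild type replicate 2, where its level of 60.3 CPM was the lowest of the 6 libraries. Supt4a, its small partner, had the widest interval, from -0.25 to 0.62, around a log2 difference of 0.18 that was 0.34 when the same library was left out, at 2.71 ± 0.444 CPM in heterozygous libraries and 2.38 ± 0.480 CPM in those of wild type (SD, n = 3 each). Supt6, a histone chaperone that binds elongating Pol II, had a log2 difference of 0.06 (SE 0.07), and Iws1, its partner, one of -0.02 (SE 0.07), and these were 0.01 and -0.08 when it was left out. Supt16 and Ssrp1 form FACT, which takes apart and restores nucleosomes. Supt16 averaged 75.4 ± 1.45 CPM in heterozygous libraries and 74.3 ± 1.80 CPM in those of wild type, and Ssrp1 averaged 66.6 ± 4.36 CPM in heterozygous libraries, against 65.6 ± 3.92 CPM in wild type libraries (SD, n = 3 each), with log2 differences of 0.02 for both. Their levels per kilobase over all libraries were 14.9 ± 0.316 CPM for Supt16 and 17.7 ± 1.00 CPM for Ssrp1 (SD, n = 6 each).

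TFIIS lets a backtracked Pol II cleave its transcript and resume. Tcea1, the broadly expressed form, stood at 19.6, 17.9 and 17.1 CPM in heterozygous libraries, against 16.6, 18.9 and 15.4 CPM in wild type libraries. Tcea2, a second form, stood at 34.9, 36.3 and 35.8 CPM in heterozygous libraries, against 40.1, 33.1 and 29.9 CPM in wild type libraries. The groups overlapped for both, and the wild type libraries of Tcea2 were spread widely around the heterozygous ones. The log2 differences were 0.10 (SE 0.10) for Tcea1 and 0.05 (SE 0.10) for Tcea2, and that of Tcea2 was -0.04 without wild type replicate 3. Their median was 0.08, and 0.10 when wild type replicate 2 was left out, with both above 0 in each case. Tcea2 exceeded Tcea1 per kilobase in every library, by 1.99 to 2.34 times in heterozygous and 1.95 to 2.69 times in wild type cortex, with the pseudogene of Tcea1 as a source of uncertainty.

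Cdk12 and Cdk13, each with cyclin K (Ccnk), phosphorylate serine 2 of the Pol II tail further into the gene. Cdk12 stood at 19.97, 19.45 and 19.86 CPM in heterozygous libraries, against 21.92, 19.96 and 21.40 CPM in wild type libraries. The groups met at heterozygous replicate 1 and wild type replicate 2, and the log2 difference was -0.09 (SE 0.07), with an interval from -0.26 to 0.07 and an adjusted p of 0.889 by edgeR. Cdk13 stood at 72.4, 65.6 and 62.8 CPM in heterozygous libraries, against 67.3, 62.3 and 64.7 CPM in wild type libraries. The groups overlapped widely, with a log2 difference of 0.05 (SE 0.07). Ccnk had one of -0.05 (SE 0.11). The median of the 3 was -0.05, and -0.14 when wild type replicate 2 was left out, with 1 above and 2 below in each case. Per kilobase Cdk13 exceeded Cdk12 by 2.76 to 3.16 times in heterozygous and 2.64 to 2.72 times in wild type libraries. This ratio and that of Ell to Ell3, at 2.40 to 2.62 times in heterozygous and 1.77 to 2.25 times in wild type libraries, did not overlap between genotypes, among the ratios given here. The others overlapped, and no test was made of any ratio. Among single genes tested, 11.7% did not overlap between genotypes. The ratio of Ell to Ell3 also carries the exon overlap of Ell3 with Serinc4.

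The rest of the pathway was read from the same fit. Of 80 further genes listed for other Pol II subunits, other elongation and pausing factors, kinases and phosphatases of the tail, chromatin marks of transcribed genes, Integrator and transcript cleavage, 80 were tested and edgeR called 0 higher and 0 lower, with 1 higher and 1 lower at an unadjusted p under 0.05, or 2.50% beside 5.83% of all genes. DESeq2, both limma-voom fits and the likelihood ratio test also called 0 of them. Fitted levels were above wild type for 44 and below for 36, with a median log2 difference of 0.02. Aff3, a nuclear protein related to Aff1 and Aff4, stood at 20.3, 20.2 and 21.7 CPM in heterozygous libraries, against 22.9, 22.6 and 25.5 CPM in wild type libraries. The groups did not overlap, and the log2 difference was -0.19 (SE 0.08, adjusted p = 0.844 by edgeR). Eloc, which encodes elongin C, stood at 150, 145 and 135 CPM in heterozygous libraries, against 120, 140 and 120 CPM in wild type libraries. Those groups overlapped, with a log2 difference of 0.18 (SE 0.08, adjusted p = 0.855 by edgeR). Ints1, a scaffold of the Integrator complex, and Ttf2, a factor of transcript release, came next by p, with log2 differences of -0.18 (SE 0.09) and -0.42 (SE 0.21). Leaving out wild type replicate 2 gave 46 above and 34 below. At an unadjusted p under 0.05, 1 was then higher and 5 lower, beside 8.89% of all genes in that fit. The higher was Eloc, with a log2 difference of 0.25 (adjusted p = 0.475 by edgeR). The 5 lower were Mllt6 (-0.33), Ints1 (-0.26, adjusted p = 0.479 by edgeR), Aff3 (-0.23), Mepce (-0.22) and Cpsf1 (-0.18). Ttf2, at -0.30, was not among them.

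Cell type markers differed between libraries as well. Summed levels of endothelial markers did not overlap between genotypes, at 60.9 to 62.1 CPM in heterozygous libraries, against 73.4 to 75.3 CPM in wild type libraries. The same held for astrocyte markers, at 1054 to 1202 CPM in heterozygous libraries, against 1232 to 1245 CPM in wild type libraries, for oligodendrocyte precursor markers, at 62.4 to 75.9 CPM in heterozygous libraries, against 79.4 to 86.2 CPM in wild type ones, and for red blood cell markers, at 21.3 to 23.7 CPM in heterozygous libraries, against 24.2 to 30.4 CPM in wild type ones. Sums weigh the most abundant markers most. As means of log2 CPM over the markers, the groups overlapped for astrocytes and blood cells but not for endothelial cells and precursors. Fitted levels of 2 of the 5 blood markers were above wild type. Meningeal markers overlapped, at 34.8 to 39.3 CPM in heterozygous libraries, against 37.3 to 80.7 CPM in wild type libraries. Microglial markers summed to 189 to 210 CPM in heterozygous libraries, against 204 to 242 CPM in wild type libraries, and overlapped too. So did the sums for pericytes and smooth muscle, at 203 to 210 CPM in heterozygous libraries, against 206 to 261 CPM in wild type libraries. As means of log2 CPM, however, microglial markers and those of pericytes and smooth muscle did not overlap, and both were lower in heterozygous libraries. Interneuron markers did not overlap by that measure either, and were higher in heterozygous libraries, while their sums overlapped. At an unadjusted p under 0.05 in edgeR, where 3.38% of all genes tested were lower and 2.44% higher, 4 of 5 endothelial, 4 of 5 meningeal, 2 of 5 pericyte, 2 of 5 astrocyte, 2 of 2 precursor, 1 of 5 microglial and 1 of 5 blood markers were lower, 2 of 5 oligodendrocyte markers were higher, and no marker of neurons, interneurons or striatal neurons was either. Markers of striatal neurons summed to 185 to 360 CPM in heterozygous libraries, against 125 to 842 CPM in wild type libraries, and those of oligodendrocytes to 8444 to 12250 CPM in heterozygous libraries, against 7002 to 9027 CPM in wild type libraries. The 12 immediate early genes, which neuronal activity induces, summed to 757 to 1398 CPM in heterozygous libraries, against 485 to 996 CPM in wild type libraries, with 8 of 12 higher at an unadjusted p under 0.05. No marker listed was at 0 in all libraries. The part of any of these in the lower levels of Mllt3, Mllt1 and Ell3 was not tested.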

How the data were processed

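Per the labels' protocols, Trizol was used to extract RNA, DNase I to remove DNA, and the unstranded TruSeq RNA kit v2 to build libraries. The authors deposited 1 table of raw read counts per gene for each library. FastQC, Bowtie2 2.3.4.3, featureCounts and DESeq2, and the builds mm10 and GRCm38.p6, are named in the submitters' processing notes. Strand settings and the counting of reads that match several places were not stated there. All 55450 identifiers matched GENCODE M21.

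Genes were filtered with edgeR's filterByExpr (minimum count 10, minimum total 15), which left 27939, scaled by TMM and tested with edgeR 4.0.16 (quasi-likelihood, R 4.3.3) on genotype alone, with Benjamini-Hochberg adjustment over all genes tested and a threshold of 0.05. CPM uses TMM-scaled library sizes, and levels per kilobase divide CPM by the merged exon length. A count of 3 corresponds to between 0.0326 and 0.0364 CPM. Intervals and standard errors come from the fit, gene by gene. The scripts were tested on simulated counts. Every pair of libraries differed by more than counting noise (chi-square per gene 13.3 to 109). The smallest value was between heterozygous replicates 1 and 2 and the largest between wild type replicates 2 and 3. Heterozygous replicate 3 was closer to wild type replicate 2 (29.5) than to heterozygous replicates 1 (65.9) and 2 (36.7).

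Replicates were numbered in record order. The members and lists were chosen with earlier results of these data known. Values in every library were fixed for the members at an unadjusted p under 0.05, the 6 next by p and the paralog sets, and those of Polr2a, Paf1 and Leo1 were added after they were seen. The listed symbol Sympk was matched after its spelling was corrected. Alternatives were other scalings and filters, DESeq2 1.42.0, limma 3.58.1, a likelihood ratio and a robust fit, and leaving out libraries. A term for high Xist counts was added after seeing the data.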

Additional observations from a re-analysis of the deposited data

How the results depend on the processing

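No member passed an adjusted p of 0.05 in any of the 18 alternative fits, nor 0.1 in the edgeR quasi-likelihood fit. Over all genes, where that fit called 0 higher and 0 lower, DESeq2 called 16 higher and 46 lower, the likelihood ratio test 13 and 16, a filter of at least 1 count 1 and 5, and limma-voom with quality weights 1 and 1, while the robust fit and a threshold of 0.1 each called 1 higher. Leaving out 1 library gave 0 to 2 lower, with the 2 without wild type replicate 2. Members at an unadjusted p under 0.05 numbered 0 higher and 2 lower. The number lower was 1 with at least 1 count, in DESeq2 and in the robust fit, and 0 in the likelihood ratio test. Without the libraries with high Xist counts it was 0, with 2 higher, Leo1 and Hexim1. Leaving out 1 library gave 0 to 2 higher and 0 to 2 lower. Of the other elongation genes (1 higher, 1 lower), 0 were higher with upper quartile factors, 0 higher and 0 lower in the likelihood ratio test, 2 higher with the high-Xist covariate, and 2 lower with at least 1 count and in limma-voom with quality weights. Leaving out 1 library gave 0 to 3 higher and 0 to 5 lower. The median log2 difference of the members lay between -0.0016 and 0.04. Of 792 single-gene values 746 kept their sign and 46 in 20 genes did not, all of small size. With library totals log2 differences turned to -0.0010 for Ctr9, -0.00038 for Nelfcd and -0.0055 for Polr2b, which was -0.0019 with upper quartile factors and -0.00031 with at least 1 count. Without the high-Xist libraries they turned to 0.033 for Wdr61, 0.017 for Iws1, 0.0063 for Cdk9, 0.050 for Polr2a and -0.040 for Tcea2, with quality weights to 0.0091 for Wdr61 and -0.0086 for Tcea2, and for Polr2d to 0.0058 in limma-voom and 0.0031 with the covariate. With 1 library left out, log2 differences ran from -0.057 to 0.046 for Paf1, from -0.041 to 0.056 for Ctr9, from -0.039 to 0.10 for Rtf1, from -0.030 to 0.017 for Wdr61, from -0.018 to 0.14 for Supt5, from -0.084 to 0.031 for Iws1, from -0.0016 to 0.035 for Supt16, from -0.025 to 0.068 for Ssrp1, from -0.033 to 0.10 for Nelfcd, from -0.14 to 0.0072 for Cdk9, from -0.016 to 0.088 for Cdk13, from -0.15 to 0.025 for Ccnk, from -0.048 to 0.12 for Ell, from -0.00086 to 0.16 for Ell2, from -0.11 to 0.039 for Aff1, from -0.037 to 0.18 for Tcea2, from -0.21 to 0.036 for Polr2a, from -0.019 to 0.036 for Polr2b, from -0.076 to 0.090 for Polr2d and from -0.085 to 0.050 for Polr2e. The cause of these changes was not tested. Supt4a had the fewest counts and the widest interval. No paired analysis was possible because the labels give no replicate numbers shared between the genotypes.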
